A study of Mus musculus with 6 samples.

Results

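Induced regulatory T cells that had kept their Foxp3 reporter were set against natural regulatory T cells recovered from the same hosts, gene by gene, with the weight on families other than the usual regulatory and helper markers. In pools of induced cells (iTreg), limma's test found 36 of 74 mitochondrial ribosomal protein genes higher (48.6%) and 21 of 71 respiratory chain genes (29.6%). It also found 8 of 18 cytosolic tRNA synthetases (44.4%) and 22 of 59 interferon-stimulated genes (37.3%) higher. Over all tested genes the share was 16.4%. With 1 pool left out, the first 3 of these list counts could be as low as 8, 1 and 3. The test found 9 of 26 nuclear receptors and coregulators (34.6%) and 6 of 17 circadian clock genes (35.3%) lower, against 12.7% of all tested genes. Most members of these 2 lists did not pass. Among single genes, Myo6, an actin motor, was 9.91-fold higher and Gdpd3, a lysophospholipase D, 21.5-fold lower in iTreg pools. Markers of macrophages stand beside these results: 24 of 32 tested members were higher in the same iTreg pools (75.0%, against 16.4% of all tested genes).

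The comparison used 4 of the 6 Affymetrix mouse expression arrays of the series, chosen by their titles: 2 of iTreg cells described as stable and 2 of nTreg cells, each array 1 replicate pool. The hosts of all arrays were BALB/c mice without Rag1, which have no T or B cells of their own, and were given wild-type nTreg cells together with 500000 wild-type iTreg cells made in culture. At 125 days, spleen and mesenteric lymph node cells of 14 such mice were pooled and sorted. EGFP reports Foxp3, and Thy1.1 marks the transferred iTreg cells: iTreg cells carried both, while nTreg cells carried EGFP without Thy1.1, so that any other EGFP+ cell without Thy1.1 would fall into the nTreg gate. The remaining 2 arrays were of ex-iTreg cells, which had Thy1.1 and no EGFP, and their levels are given beside some results. They also entered the estimate of spread in limma's test. Ages are not given in the labels used here. The protocols describe injection into mice that already had colitis, and the labels used here do not say which cells had caused it. Nor do they say whether the 2 pools of a population held cells of separate mice: p-values here reflect how far the pools of a population scatter, and that scatter could be purely technical.

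Natural regulatory T cells arise in the thymus, and induced ones arise from conventional CD4 T cells when the T cell receptor is engaged in the presence of TGF-beta. Both restrain inflammation and depend on Foxp3, but their wider programs of metabolism, signalling and cytoskeleton are less often described. Genes induced by receptor signalling, such as the NR4A receptors, and genes of mitochondrial metabolism are among those studied for their part in how long regulatory T cells persist.

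Values are deposited log2 expression levels, and a difference is iTreg minus nTreg in log2 units ± its standard error, with n = 2 pools per group. Of 23484 tested probe sets, 6826 passed limma's test at an adjusted p of 0.05 (29.1%). Read on the brightest probe set of each gene, 3206 of 11019 genes passed (29.1%), 1808 higher in iTreg pools (16.4%) and 1398 lower (12.7%). A difference of at least 2-fold was found for 249 genes (2.26%), 97 higher and 152 lower, and all of them passed. In 4320 genes both iTreg pools lay above both nTreg pools (39.2%), and in 3169 both lay below (28.8%). These shares are the background for each count of list members. The lists and their members were chosen with earlier results of these data known. Part of a list's distance from the background could come from that choice, which was not tested. Without iTreg pool 2 the called genes numbered 1547 and without iTreg pool 1 they numbered 1796, against 2219 and 2409 without nTreg pool 2 or 1. In 64 of the 70 gene lists the higher or the lower count then moved by over 1.5 times, so the counts below describe the fit on all 4 pools. With 2 pools against 2, an exact two-sided permutation test cannot go below p = 0.33, so the calls rest on the spread that limma pools across probe sets.

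Several values of the pools moved together with the populations. All 18 T cell identity genes on the array lay above the filter level of 5.48 in both groups, and their summed level on the linear scale was 78137 and 76850 in nTreg pools and 77815 and 79128 in iTreg pools. Foxp3 itself read between 3.99 and 4.29 in every array and could not check the gates. The summed level of 36 macrophage markers was 16420 and 15780 in nTreg pools against 19898 and 19864 in iTreg pools. Spiked poly-A control probe sets averaged 10.67 and 10.79 in nTreg pools and 12.21 and 12.18 in iTreg pools, and the Gapdh 3' minus 5' difference was 0.15 in both nTreg pools and 0.38 and 0.51 in iTreg pools. Xist, the transcript of the inactive X chromosome, read 13.16 in both nTreg pools and 11.87 in both iTreg pools. The Y-linked gene Eif2s3y read 8.57 and 8.50 in nTreg pools and 9.69 and 9.68 in iTreg pools. The part of these differences in the results was not tested. In pooled RNA, fewer cells of a type and less RNA per cell cannot be told apart.

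**Figure D1:**
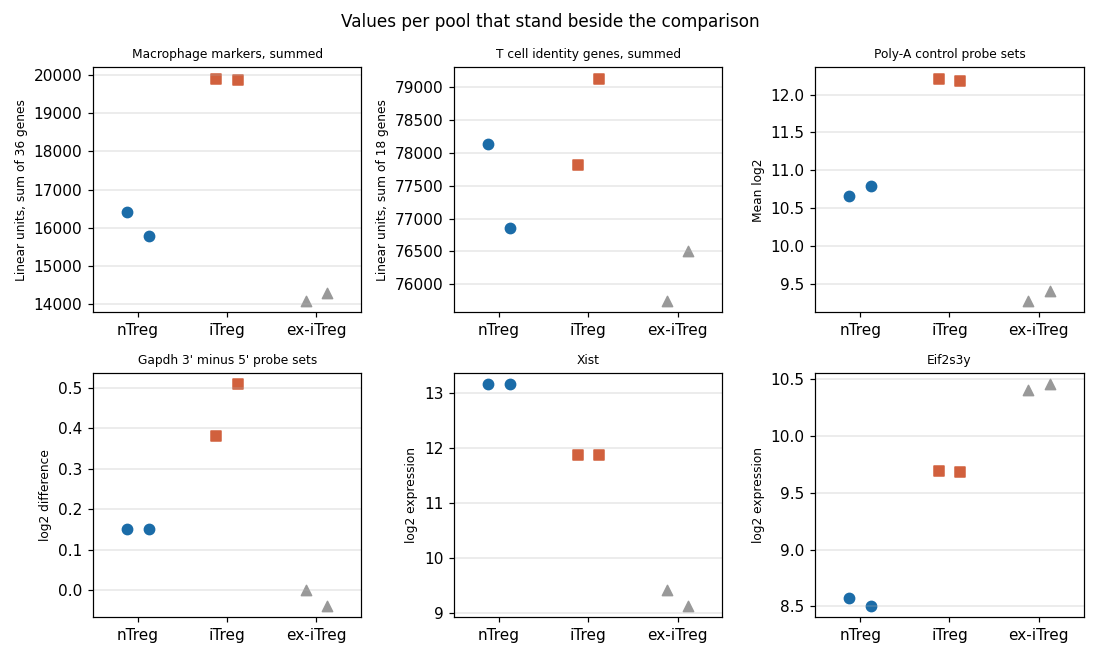
Values of each of the 6 pools, 1 point per pool, for summed macrophage markers and T cell identity genes (linear units), poly-A controls, Xist and Eif2s3y (log2) and the Gapdh 3' minus 5' difference (log2). The axes do not start at 0; iTreg pools lie above nTreg pools for the macrophage sum, the poly-A controls, the Gapdh difference and Eif2s3y, and below them for Xist, while their T cell sums overlap.

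Genes were ranked by size with usual Treg and helper markers, markers of other cell types and provisional names left out. In this ranking the largest rise with both means above the filter level was that of a cytoskeletal gene. Myo6, an unconventional myosin that moves cargo along actin, read 7.29 and 7.14 in nTreg pools and 10.55 and 10.50 in iTreg pools. The groups did not overlap, the difference was 3.31 ± 0.09 (adjusted p = 3.19e-05, limma), and its other 2 probe sets rose as well, by 2.59 and 1.45. Sh3bgrl2, a small protein with a thioredoxin-like fold, read 6.69 and 6.67 against 9.56 and 9.39, a difference of 2.79 ± 0.09. Nav1, a microtubule-associated protein, rose by 1.29 ± 0.09. In the opposite direction, Swap70, a phosphoinositide-binding protein that acts with Rac on the actin cortex, read 9.93 and 9.92 in nTreg pools and 7.87 and 7.69 in iTreg pools (-2.15 ± 0.08, adjusted p = 6.29e-05, limma). Gas2l3, which links actin to microtubules, fell by 1.98, and the class I myosin gene Myo1d fell by 1.81 to a mean under the filter level, where the size of a difference is not resolved.

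As families these genes did not all move one way. Of 67 tested actin regulators, 15 were higher and 9 lower, with a median difference of 0.04, the median over all tested genes. The bundling protein alpha-actinin 1, from Actn1, rose by 1.32 ± 0.06, and Evl, which speeds actin filament growth, rose by 1.20 ± 0.07. Of 27 tested genes of myosins and their partners, 2 were higher, Myo6 and the myosin VI cargo adaptor Tom1, and 8 were lower, or 29.6%, against the background of 12.7%. The 8 became 5 without nTreg pool 1 or 2, 4 without iTreg pool 1 and 3 without iTreg pool 2.

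**Figure D2:**
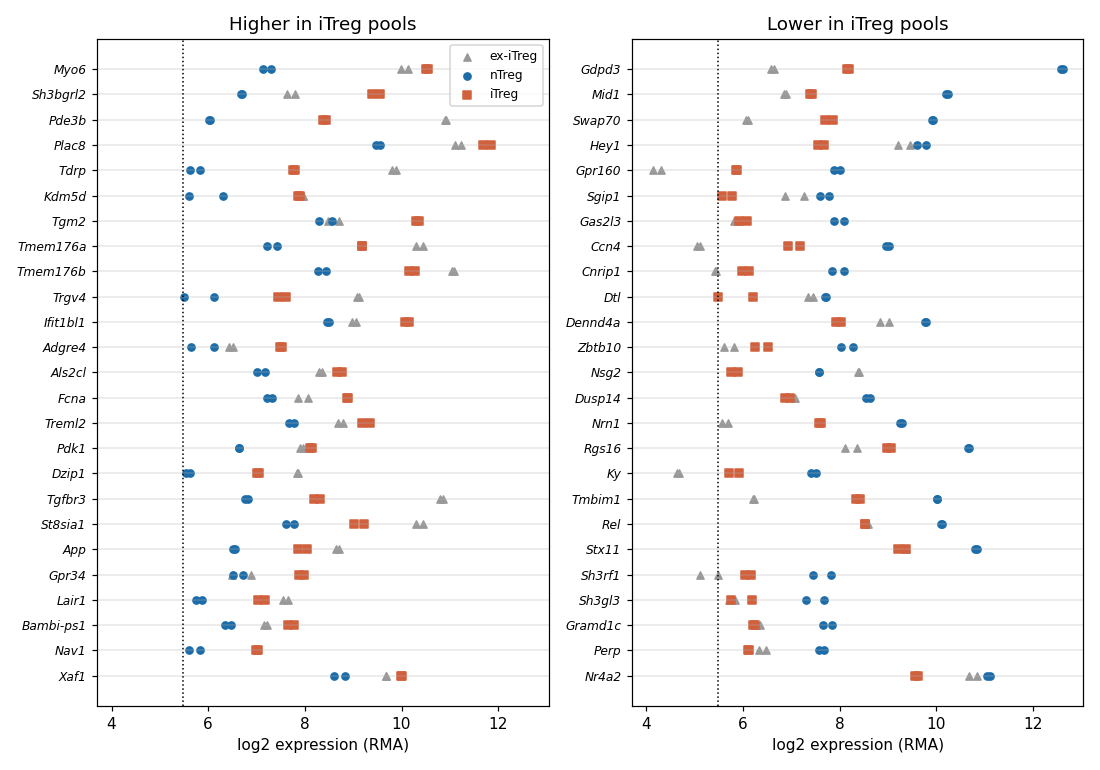
Deposited log2 expression (horizontal axis) of the 25 genes with the largest rise and the 25 with the largest fall from nTreg to iTreg pools, 1 point per pool. They were ranked among genes that passed limma's test with both means above the filter level (dotted line at 5.48). Usual Treg and helper markers, markers of other cell types and provisional names were left out of the ranking. nTreg and iTreg points do not overlap for any gene shown, which the choice of the genes fixes, and ex-iTreg points lie at or beyond the iTreg mean for 12 of the 25 higher and 14 of the 25 lower genes.

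The largest fall in the same ranking was that of Gdpd3, a gene of membrane lipids. Gdpd3, an enzyme that makes lysophosphatidic acid from lysophospholipids, read 12.58 and 12.62 in nTreg pools against 8.16 and 8.19 in iTreg pools (-4.43 ± 0.06, adjusted p = 4.93e-06, limma). No other ranked gene with both means above the filter level fell as far, and Mid1, at -2.81, came next. Of the other 61 tested genes of glycerophospholipid and lysophospholipid metabolism, 11 were higher and 13 lower. With Gdpd3 counted, the lower genes stayed between 9 and 11 with 1 pool left out, but the 11 higher ones became 7 without nTreg pool 1, 3 without nTreg pool 2 or iTreg pool 1 and 2 without iTreg pool 2. Pcyt1a, which catalyses the regulated step of phosphatidylcholine synthesis, fell by 1.18 ± 0.09 and on its 3 other probe sets, while the acyltransferase gene Mboat1 rose by 0.69 ± 0.06. The proton-sensing receptor gene Gpr65 fell by 0.99 ± 0.07, and Gpr34, a receptor for lysophosphatidylserine, rose by 1.32 ± 0.14. Gpr34 is set beside the macrophage values below. The orphan receptor gene Gpr160 read 8.01 and 7.88 against 5.87 and 5.85.

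The list of 49 tested glycosyltransferases and sialyltransferases was mixed, 13 higher and 10 lower. Its members with the larger differences included enzymes of gangliosides, sialic acid-bearing glycolipids of the cell surface. St8sia1, the synthase of the ganglioside GD3, read 7.78 and 7.60 in nTreg pools and 9.22 and 9.01 in iTreg pools (1.43 ± 0.11, adjusted p = 0.000455, limma). Ugcg, which adds the glucose that begins the pathway, rose by 0.91 ± 0.10, and B4galnt1, the synthase of GM2 and GD2, by 0.88 ± 0.08. A dimmer probe set of B4galnt1 gave 0.12 (adjusted p = 0.393, limma). St8sia6, a sialyltransferase that acts mainly on glycoproteins, rose by 1.08 ± 0.07.

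Cyclic nucleotide and phosphatase genes changed in both directions. Pde3b, which breaks down cyclic AMP, read 6.03 and 6.01 in nTreg pools, 8.44 and 8.38 in iTreg pools and 10.89 and 10.93 in ex-iTreg pools. The difference between the regulatory populations was 2.39 ± 0.06 (adjusted p = 3.19e-05, limma). Pde11a rose by 1.01 ± 0.06, Pde5a rose by 1.33 from an nTreg mean under the filter level, and Pde4d and Pde7a, which break down cyclic AMP as well, fell by 0.62 and 0.55. Over 29 tested phosphodiesterases, adenylyl cyclases and kinase A subunits the counts were equal, 5 higher and 5 lower. Among 16 dual-specificity phosphatases, which switch off MAP kinases, 3 were higher and 4 lower. Dusp14 read 8.62 and 8.55 against 6.86 and 6.98, Dusp4 fell by 1.45 ± 0.06 and Dusp16 by 1.31 ± 0.10. Dusp7 and Dusp10 rose by 0.94 and 0.88, Dusp10 on 1 of its 2 tested probe sets.

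Receptor-proximal brakes followed the same mixed pattern. Of 28 protein tyrosine phosphatases, 9 were lower (32.1%, background 12.7%) and 4 higher, with Ptprs, a receptor-type phosphatase, at -0.94 ± 0.06 and Ptprj (CD148) at -0.80 ± 0.07. The 9 became 4 without nTreg pool 1 or iTreg pool 1, 5 without iTreg pool 2 and 7 without nTreg pool 2. Rgs16, which shortens signalling of Gi- and Gq-coupled receptors, read 10.66 and 10.68 against 9.06 and 8.97 (-1.65 ± 0.09, adjusted p = 0.000165, limma), and Rgs2 fell by 0.66 ± 0.06, while Rgs10 rose by 0.52 ± 0.07. Of 11 tested RGS genes 5 were lower (45.5%, background 12.7%) and 3 higher (27.3%, background 16.4%). Among 36 genes that limit T cell receptor signals, 8 were higher and 9 lower. Lair1, an inhibitory receptor for collagen, rose by 1.31 ± 0.09 and Dgka, a kinase that removes diacylglycerol, by 0.69 ± 0.07, while the ubiquitin ligase gene Rnf128 (GRAIL) fell by 1.02 ± 0.11.

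Ligands and receptors of other growth and guidance pathways were also among the larger differences. Tgfbr3, the coreceptor betaglycan, read 6.82 and 6.77 in nTreg pools, 8.18 and 8.32 in iTreg pools and 10.86 and 10.79 in ex-iTreg pools. App, the amyloid precursor protein, rose by 1.41 ± 0.08. Ccn4, a secreted target of Wnt signalling, fell from 9.02 and 8.96 to 7.17 and 6.93, and Nrn1, the surface protein neuritin, from 9.24 and 9.28 to 7.58 and 7.62. Wls, which carries Wnt proteins to the cell surface, fell by 1.33 ± 0.09. The planar polarity genes Prickle1 and Prickle2 fell to means under the filter level, and over 34 tested Wnt and polarity genes 7 were higher and 8 lower. Hey1, a repressor induced by Notch, read 9.79 and 9.59 in nTreg pools, 7.67 and 7.55 in iTreg pools and 9.45 and 9.20 in ex-iTreg pools. Of 26 tested Notch pathway genes 4 were higher and 5 lower, among them Rbpj, the pathway's DNA-binding factor, at -0.60 ± 0.06.

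A list of epithelial and junctional adhesion genes, not all of them particular to epithelia, had 25 tested members. Of these, 7 were lower in iTreg pools (28%, background 12.7%) and 3 higher (12%, background 16.4%). Alcam, an adhesion molecule that binds CD6, read 9.02 and 8.86 against 7.56 and 7.53 (-1.39 ± 0.08), and its 4 other probe sets fell too. Epcam, an epithelial adhesion molecule, fell by 2.12 ± 0.07, but a dimmer probe set of the gene gave -0.14 (adjusted p = 0.406, limma). The connexin gene Gjb2 and the matrix gene Matn2 fell to means under the filter level. Of 24 stromal, endothelial and epithelial markers on the array, 19 were not above the filter level in iTreg pools, keratins 8, 18 and 19 and E-cadherin among them.

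Tmem176a and Tmem176b, which encode related membrane proteins, rose side by side. Tmem176a read 7.21 and 7.42 in nTreg pools and 9.19 and 9.18 in iTreg pools, and Tmem176b read 8.44 and 8.27 against 10.15 and 10.28. The differences were 1.87 ± 0.09 and 1.86 ± 0.09. In RefSeq (GRCm38.p6) both lie on chromosome 6 and are read away from each other, with their closest annotated starts 109 bases apart. In ex-iTreg pools they were higher still, at 10.44 and 10.29 and at 11.08 and 11.04.

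Nuclear receptors were lower in iTreg pools more often than higher. Of 26 tested nuclear receptors and coregulators, 9 were lower, or 34.6% against the background of 12.7%, and 2 were higher, with a median of -0.06. The 9 stayed at 9 when any 1 of the 4 pools was left out. Nr4a2, a receptor gene induced by T cell receptor signals, read 11.10 and 11.05 in nTreg pools, 9.62 and 9.55 in iTreg pools and 10.85 and 10.68 in ex-iTreg pools (-1.49 ± 0.08, adjusted p = 0.000155, limma). It fell on 3 of its 4 other probe sets, and the dimmest differed by -0.00 (adjusted p = 0.989, limma). Its relatives Nr4a3 and Nr4a1 fell by 0.78 and 0.42. Rora fell by 1.19 ± 0.06 on this and 6 other probe sets, and the corticosteroid receptors Nr3c1 and Nr3c2 fell by 0.87 and 1.05. Rxra and Nr1h3, the higher members, encode the retinoid X receptor alpha and its oxysterol-binding partner.

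Clock genes overlap with these lists. Of 17 tested, 6 were lower (35.3%, background 12.7%) and 0 were higher, while 11 did not pass the test, and in 10 of the 17 both iTreg pools lay below both nTreg pools (background 28.8%). Nfil3, which stands at the output of the clock and is also induced in T cells by cytokines, read 11.35 and 11.43 against 10.41 and 10.42 (-0.97 ± 0.06). Bhlhe40 fell by 0.67 ± 0.06, the core activator Arntl (BMAL1) by 0.59 ± 0.07, Per1 by 0.56 ± 0.09, Nr1d2 (REV-ERB beta) by 0.51 ± 0.06 and Cry1 by 0.39 ± 0.09. A dimmer Arntl probe set gave -0.14 (adjusted p = 0.348, limma). The count of lower genes was between 5 and 7 with any 1 pool left out. The hour at which tissue was taken is not given in the labels used here.

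Helix-loop-helix factors were lower in 9 of 26 cases (34.6%, background 12.7%) and higher in 4 (15.4%, background 16.4%). Epas1, the hypoxia-inducible factor HIF-2 alpha, read 8.71 and 8.72 in nTreg pools and 7.37 and 7.40 in iTreg pools, and 9.03 and 9.08 in ex-iTreg pools. Ahr, the aryl hydrocarbon receptor, fell by 0.80 ± 0.08 and Id2 by 0.75 ± 0.08. Rel, the NF-kappaB subunit c-Rel, read 10.11 and 10.09 against 8.53 and 8.52 (-1.57 ± 0.06, adjusted p = 7.6e-05, limma). Other factor lists were closer to even: of 37 zinc finger and BTB factors 9 were higher and 11 lower, and of 13 Kruppel-like factors 4 were higher and 3 lower. Zbtb10, a zinc finger factor, fell by 1.77 on the probe set used and by 1.00 on a dimmer one, and a further one differed by 0.20 (adjusted p = 0.151, limma). Foxp1, a forkhead factor of resting T cells, rose by 0.95 ± 0.07 on this and 7 other probe sets, and Satb1, an organiser of chromatin, rose by 0.57 ± 0.06. Among 54 histone and DNA methylation enzymes 9 were higher and 11 lower, with the demethylases Kdm2b and Kdm6b at -0.96 and -0.79 and the methyltransferase Ezh2 at -0.69.

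Among protein-making genes of the mitochondrion the called differences were small and nearly all in 1 direction. Of 74 tested mitochondrial ribosomal proteins, 36 were higher in iTreg pools, or 48.6% against the background of 16.4%, 1, Mrpl32, was lower and 37 did not pass, with a median of 0.23. In 60 of the 74 both iTreg pools lay above both nTreg pools (background 39.2%). Mrpl23 read 9.35 and 9.25 against 9.92 and 9.99 (0.66 ± 0.08, adjusted p = 0.00228, limma), and Mrpl34 read 8.22 and 8.12 against 8.78 and 8.73 (0.58 ± 0.07). Mrps10, Mrpl15 and Mrpl52, counted as higher, each have another probe set that fell (-0.42, -0.36 and -0.48). The count of 36 depended on single pools: 27 without nTreg pool 1, 10 without nTreg pool 2, 11 without iTreg pool 1 and 8 without iTreg pool 2, while the median stayed between 0.19 and 0.27.

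Respiratory chain and ATP synthase subunits showed the same direction at a smaller size. Of 71 tested, 21 were higher (29.6%, background 16.4%) and 0 lower, with a median of 0.14, and 50 did not pass. Ndufs5, a subunit of complex I, read 9.42 and 9.27 against 9.82 and 9.89 (0.51 ± 0.08), and Sdhc, of complex II, read 8.41 and 8.35 against 8.73 and 8.68 (0.32 ± 0.07). The 21 became 13 without nTreg pool 1, 5 without nTreg pool 2, 7 without iTreg pool 1 and 1 without iTreg pool 2. Among 18 cytosolic tRNA synthetases 8 were higher (44.4%, background 16.4%) and 0 lower, with the valine enzyme Vars at 0.53 ± 0.06 and the tyrosine enzyme Yars at 0.54 ± 0.08; 4, 3, 3 and 4 of them passed when nTreg pool 1, nTreg pool 2, iTreg pool 1 or iTreg pool 2 was left out. Of 43 cytosolic ribosomal proteins 6 were higher and 0 lower, a share of 14.0% near the background. Proteasome subunits passed in 4 of 37 cases, 3 higher and 1 lower, fewer than the background share.

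**Figure D3:**
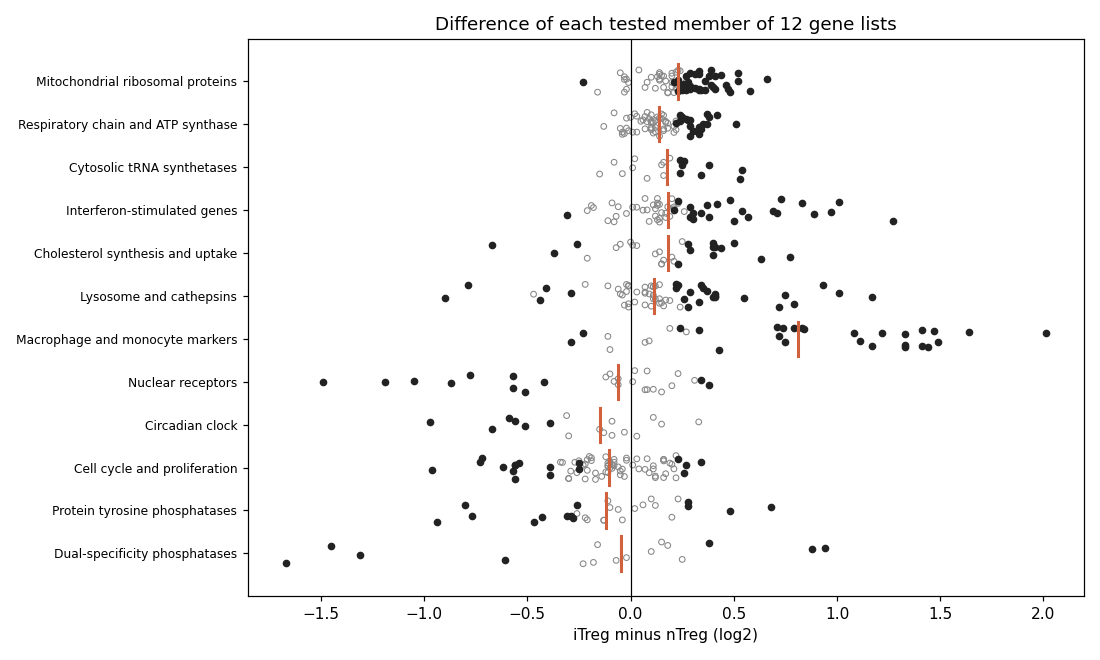
Difference (iTreg minus nTreg, log2, horizontal axis) of each tested member of 12 gene lists; filled points passed limma's test, open points did not, and the bar is the list's median. Mitochondrial ribosomal proteins lie mostly between 0 and 0.66 with a median of 0.23, nuclear receptors reach -1.49, and macrophage markers have a median of 0.81.

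Metabolic enzymes outside the respiratory chain were led by Pdk1, the kinase that keeps pyruvate out of the mitochondrion. It read 6.64 in both nTreg pools and 8.15 and 8.10 in iTreg pools (1.49 ± 0.06, adjusted p = 9.15e-05, limma), and its 2 other probe sets rose as well. The glucose transporter gene Slc2a3 rose by 0.54 ± 0.06, while Ldhb, a lactate dehydrogenase subunit, fell by 0.84 ± 0.07 and Tktl1, a relative of transketolase, by 1.02 ± 0.11. In all, 8 of 36 genes of glycolysis and the pentose phosphate path were higher (22.2%, background 16.4%) and 3 lower (8.33%, background 12.7%). The 8 became 6 and 5 without nTreg pool 1 or 2 and 4 without either iTreg pool. Tigar, counted as higher at 0.48, has another probe set that fell by 1.59 (adjusted p = 0.00376, limma). Srm, which makes spermidine, rose by 0.97 ± 0.10, whereas Odc1, which makes the putrescine it uses, fell from 12.47 and 12.44 to 11.70 and 11.67. Of 50 genes of fatty acid metabolism 10 were higher (20%, background 16.4%) and 4 lower (8%, background 12.7%), so neither share was far from the background. Higher ones included Acaa2 at 0.60 ± 0.08 and Acss2 at 0.62 ± 0.08. Among the lower ones were both enzymes of the last step of triglyceride synthesis, Dgat1 at -0.74 ± 0.07 and Dgat2 at -1.04 ± 0.13. The fatty acid carrier Fabp5, at -0.61 ± 0.06, was another. The 10 became 6 without nTreg pool 1 or 2, 5 without iTreg pool 1 and 3 without iTreg pool 2, where 4 were lower.

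Cholesterol genes were higher in 11 of 28 tested cases (39.3%, background 16.4%) and lower in 3. Sqle, which begins the sterol-specific steps, read 7.34 and 7.28 against 8.12 and 8.04 (0.77 ± 0.07), and Mvd and Lss, which act before and after it, rose by 0.63 and 0.50. The late enzymes Sc5d and Cyp51 fell by 0.67 and 0.37, each with other probe sets that did not pass. The 11 became 9 without nTreg pool 1, 6 without nTreg pool 2 or iTreg pool 1 and 5 without iTreg pool 2.

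Survival genes divided within the BCL2 family, with 5 of 20 higher and 5 lower. Pmaip1 (NOXA), which promotes cell death, read 11.51 and 11.55 against 10.50 in both iTreg pools (-1.03 ± 0.06). Bcl2l1, whose product BCL-XL protects cells, fell by 0.67 ± 0.07, while Bcl2 itself rose by 0.60 ± 0.07 on this and 4 other probe sets and Bcl2l11 (BIM), which promotes death, rose by 0.49 ± 0.08.

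Cell cycle genes were lower in 13 of 76 tested cases, or 17.1% against the background of 12.7%, and higher in 4, or 5.26% against 16.4%, with a median of -0.10. Mki67, the gene of the Ki-67 antigen, read 9.65 and 9.56 in nTreg pools and 9.02 and 9.08 in iTreg pools (-0.56 ± 0.07), and the replication helicase gene Mcm6 fell by 0.57 ± 0.07. Top2a fell by 0.62 ± 0.06, though its dimmer probe set differed by 0.00 (adjusted p = 0.995, limma). Dtl, which directs destruction of a replication licensing factor, read 7.70 and 7.72 in nTreg pools and 5.48 and 6.21 in iTreg pools, the widest spread among the 50 genes plotted by pool on the iTreg side. The lower genes were 9 to 12 with any 1 pool left out.

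Interferon-stimulated genes were higher in 22 of 59 tested cases (37.3%, background 16.4%), and 1, Eif2ak2, was lower, with a median of 0.18. Oas2, a sensor of double-stranded RNA, read 6.91 and 6.83 in nTreg pools, 7.85 and 7.91 in iTreg pools and 7.65 in both ex-iTreg pools (1.01 ± 0.07, adjusted p = 0.000284, limma). Usp18, which restrains the interferon receptor, read 8.81 and 8.70 against 9.66 and 9.63. Ifit3, an antiviral protein, rose by 0.73 ± 0.06 and Gbp2, a guanylate-binding protein, by 0.97 ± 0.09. Xaf1 rose by 1.27 ± 0.09 on its brightest probe set, but its other probe set fell by 4.28 (adjusted p = 3.19e-05, limma), and which direction it shows depends on which probe set is read. The 22 became 19 without nTreg pool 1, 16 without nTreg pool 2 or iTreg pool 1 and 14 without iTreg pool 2. Ifit1bl1, a further member of the Ifit family named for the size of its difference, read 8.50 and 8.46 against 10.16 and 10.08.

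The promoters of these genes were searched for the core of the interferon-stimulated response element, GAAA followed by any 2 bases and GAAA, on both strands of the 250 bases before each RefSeq start (GRCm38.p6). It was found in 8 of 17 higher interferon-stimulated genes with a promoter in the table (47.1%), in 7 of 26 that did not pass the test (26.9%) and in 3.46% of all 27025 genes. The lists hold genes known for their response to interferon, so this share describes the list and not the arrays. A match is a run of letters, not a measured site. The 5 members with the largest differences among those with a match are shown because they carry the element close to the start of genes that rose; Oas3, Slfn8 and Ifit1 were picked here after their values were seen. Each run is 60 bases on the strand of the gene, with the element in capitals:
Gbp2 (0.97 higher; chr3:142620584-142620643, + strand; element begins 59 bases before the start): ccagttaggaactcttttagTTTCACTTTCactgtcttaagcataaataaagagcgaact
Oas3 (0.83 higher; chr5:120777695-120777754, - strand; 75 bases before): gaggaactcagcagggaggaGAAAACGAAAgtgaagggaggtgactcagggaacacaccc
Ifit3 (0.73 higher; chr19:34583353-34583412, + strand; 156 bases before): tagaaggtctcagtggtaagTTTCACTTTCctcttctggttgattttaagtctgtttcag
Slfn8 (0.71 higher; chr11:83020819-83020878, - strand; 48 bases before): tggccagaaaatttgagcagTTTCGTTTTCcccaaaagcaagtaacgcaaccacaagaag
Ifit1 (0.57 higher; chr19:34640765-34640824, + strand; 104 bases before, with 2 matches): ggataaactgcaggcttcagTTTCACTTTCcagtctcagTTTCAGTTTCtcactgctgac

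**Figure D4:**
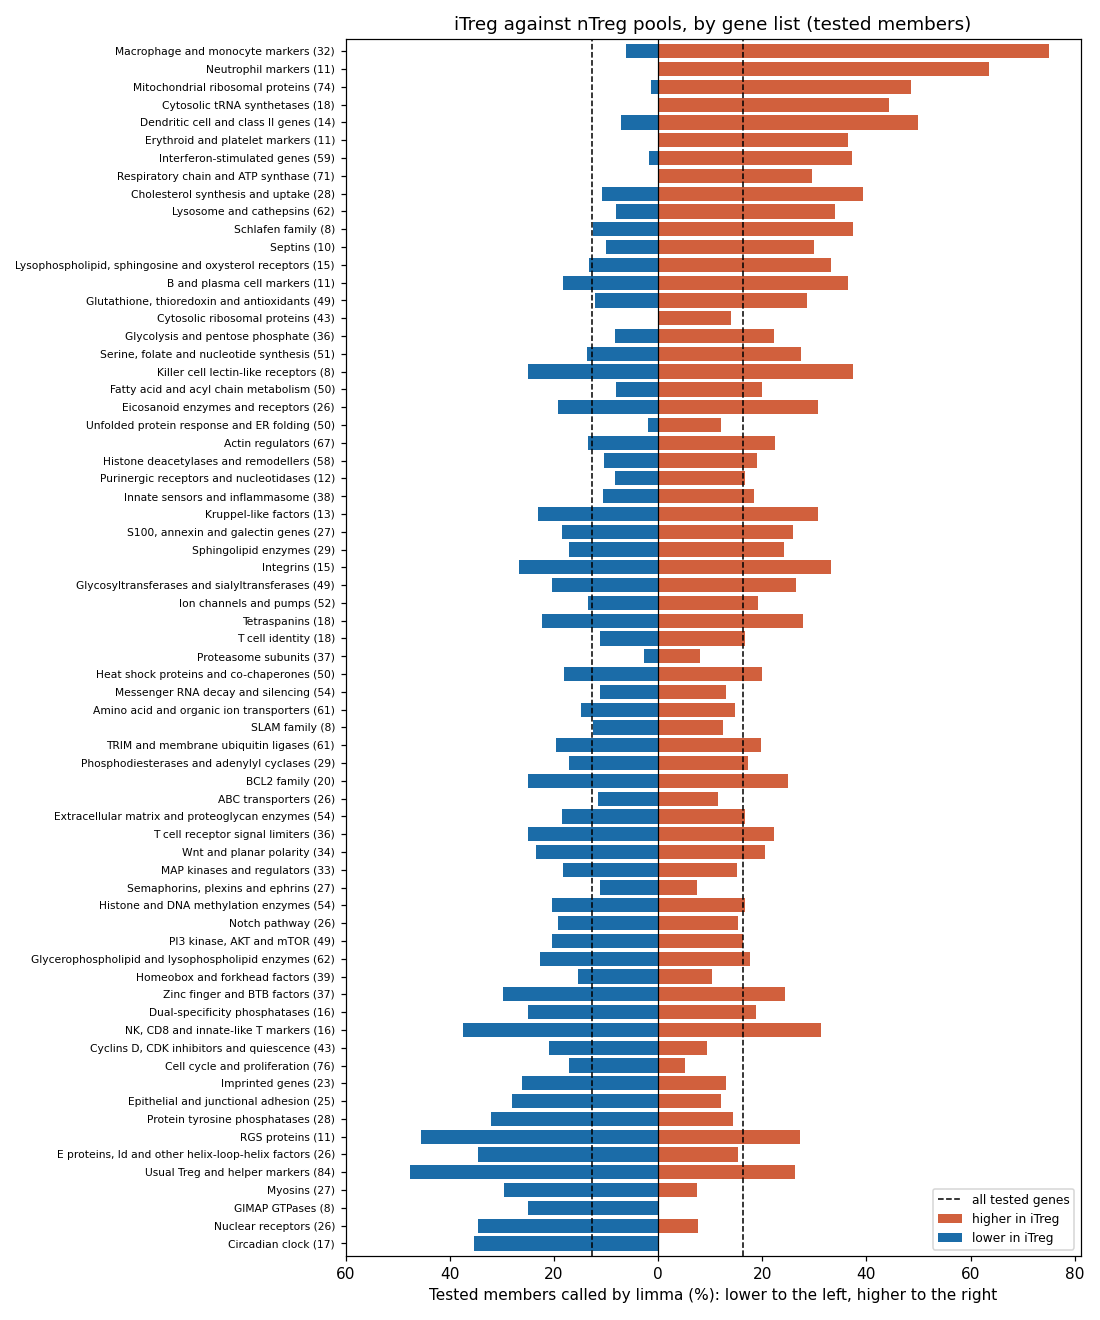
Share of the tested members of each gene list shown that passed limma's test (%), higher in iTreg pools to the right and lower to the left, for lists with at least 8 tested members (number in brackets). Dashed lines mark all tested genes, 16.4% higher and 12.7% lower; macrophage markers reach 75.0% higher and the circadian clock 35.3% lower with 0 higher.

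Macrophage and monocyte markers had the largest share of higher members among the lists plotted, with 24 of 32 tested members higher (75.0%, background 16.4%) and 2 lower, a median of 0.81 and 14 members at least 2-fold higher. C1qb, a complement chain made by tissue macrophages, read 7.37 and 6.97 in nTreg pools and 9.15 and 9.22 in iTreg pools, and Adgre1, a surface receptor that marks tissue macrophages, read 6.01 and 5.87 against 7.34 and 7.47. Slc40a1, the iron exporter ferroportin, rose by 1.41 ± 0.07, and Hmox1, which breaks down heme, by 0.79 ± 0.09. The count of 24 was 20 to 23 with any 1 pool left out. Of the 36 markers on the array, 4 were not above the filter level in iTreg pools, Timd4, Vsig4, Spic and Itgam.

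Some genes with large differences are known in macrophages as well as in T cells, and the macrophage values stand beside them. Tgm2, a transglutaminase, read 8.57 and 8.30 in nTreg pools, 10.36 and 10.30 in iTreg pools and 8.71 and 8.48 in ex-iTreg pools. The receptor gene Gpr34 read 6.72 and 6.51 in nTreg pools, 7.99 and 7.88 in iTreg pools and 6.49 and 6.88 in ex-iTreg pools. Fcna (ficolin A) and Adgre4, both known from macrophages, rose by 1.61 ± 0.09 and 1.62 ± 0.15. Lysosome genes, which macrophages hold in plenty, were higher in 21 of 62 cases (33.9%, background 16.4%) and lower in 5, with the protease genes Ctsl and Ctsd at 1.01 ± 0.09 and 0.72 ± 0.06. The 21 became 13 without nTreg pool 1, 10 without nTreg pool 2, 9 without iTreg pool 1 and 11 without iTreg pool 2. The part of the macrophage signal in these values, and in the interferon, cholesterol and mitochondrial lists, was not tested.

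Markers of other cell types differed as well. Higher in iTreg pools were 63.6% of tested neutrophil genes, 50% of class II and dendritic cell genes and 36.4% of B and plasma cell genes (background 16.4%). The summed linear level of iTreg over nTreg pools was 1.29-fold for class II and dendritic cell genes, 1.24-fold for neutrophil genes and 1.11-fold for B and plasma cell genes, beside 1.24-fold for macrophage markers. Such sums weigh the brightest members most. Median differences of the tested members were 0.30, 0.40 and 0.03 in the same order, beside 0.81 for macrophage markers. Of 11 tested neutrophil genes 7 were higher and 0 lower, with a median of 0.40, and 6, 2, 5 and 2 passed without nTreg pool 1, nTreg pool 2, iTreg pool 1 or iTreg pool 2. Class II and dendritic cell genes were higher in 7 of 14 cases, or 4 without either nTreg pool, with Cd74 at 0.81 ± 0.09, while Itgax (CD11c) was not above the filter level in iTreg pools. B and plasma cell genes were higher in 4 of 11 cases and lower in 2. The immunoglobulin light chain gene Igk read 4.59 and 4.70 in nTreg pools and 7.81 and 7.69 in iTreg pools (3.10 ± 0.08, adjusted p = 3.19e-05, limma), from a mean under the filter level, while its other probe set fell by 0.70. Jchain, which joins secreted antibodies, rose by 0.47 ± 0.06. The light chain segment gene Iglv1 and the B cell adaptor gene Bank1 each rose by 1.87 ± 0.11. The B cell receptor chain gene Cd79b fell by 1.19, and Ms4a1 (CD20) fell to a mean under the filter level. The B lineage genes Cd79a, Pax5 and Ebf1 were not above the filter level in iTreg pools. Among NK, CD8 and innate-like T cell genes 5 of 16 were higher and 6 lower. Trgv4, a segment of the gamma chain of the other T cell receptor type, read 6.12 and 5.50 in nTreg pools, 7.60 and 7.45 in iTreg pools and 9.08 and 9.13 in ex-iTreg pools.

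Genes were also counted by chromosome, because iTreg cells carry the Thy1.1 allele and the sex-linked genes differed between the populations. Of 40 tested genes around Thy1, 20 on each side in gene order, 6 were higher and 5 lower (27.5%, background 29.1%), with a median of 0.03 and 0 at least 2-fold apart. On the X chromosome 29 of 318 tested genes were higher and 71 lower, 31.4% together against the background of 29.1%. Lower X-linked genes thus outnumbered higher ones, with a median of -0.04. Over all tested genes the order was the reverse: higher ones (16.4%) were more frequent than lower ones (12.7%), with a median of 0.04. Of 4 tested Y-linked genes 3 were higher, Kdm5d at 1.92 ± 0.20, Uty at 1.38 ± 0.07 and Eif2s3y at 1.15 ± 0.07. Mid1 and Gpr34, described above, lie on the X chromosome.

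Levels in ex-iTreg pools place the largest differences beside the cells that lost the reporter. These values share the nTreg and iTreg arrays with the comparison and are given side by side, without a test. The ranking leaves out usual Treg and helper markers, markers of other cell types and provisional names, so the counts do not cover those genes. It also picks genes for a large difference between nTreg and iTreg pools, which makes an ex-iTreg mean beyond nTreg less likely. The same counts over all tested genes were not made. Of the 25 largest rises so ranked with both means above the filter level, the ex-iTreg mean lay at or above the iTreg mean in 12. It lay between the regulatory populations in 13 and at or below nTreg in 0. Of the 25 largest falls so ranked, it lay at or below the iTreg mean in 14, between in 10 and above nTreg in 1, Nsg2. That gene read 7.57 and 7.58 in nTreg pools, 5.89 and 5.75 in iTreg pools and 8.37 and 8.40 in ex-iTreg pools. Gdpd3 was lower again, at 6.57 and 6.64, and Swap70 read 6.10 and 6.06. Mid1, the ubiquitin ligase that binds microtubules, read 10.24 and 10.19, then 7.43 and 7.39, then 6.89 and 6.84.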

How the data were processed

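Expression was measured on Affymetrix Mouse430_2 arrays, 2 pools for each of 3 sorted populations. The values deposited are log2 expression after RMA, a background, quantile and probe-summary procedure, which the submitters' processing notes name as the authors' method. The program that ran it is not given in the sources used here. RMA removes differences in overall signal between arrays. Of 45101 probe sets, 64 were controls, 34945 had 1 gene symbol in the platform annotation, 932 several and 9160 none, and 34741 matched the RefSeq gene table. A probe set was tested where 2 or more of the 6 arrays exceeded 5.48, the median value of the table. Tests used limma 3.58.1 (R 4.3.3; lmFit, then eBayes, with 1 mean per group, 3 residual and 3.37 prior degrees of freedom), adjusted by Benjamini-Hochberg over 23484. The number of arrays, 2 per group, limits the precision. Across probe sets, pools of the same group had r from 0.9957 to 0.9963 and pools of the 2 groups with r from 0.977 to 0.9787; probe sets are not independent. A gene was read on its brightest tested probe set.

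The members and the 70 gene lists were chosen with earlier results of these data known. The result of 1 list is not reported here. Named genes are the 25 largest called differences each way with both means at or above 5.48, and 12 each way with 1 mean under it, leaving out usual Treg and helper markers, other cell types and provisional names; up to 6 called members per list by t; and sex-linked genes. Other members are named to say which moved. Alternatives changed the arrays fitted, a pool-number block, the filter, scaling, variance model, a fold threshold, each pool left out and the probe set rule. The model was tested on simulated data. The authors' comparison with conventional T cells is not analysed here.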

Additional observations from a re-analysis of the deposited data

How the results depend on the processing

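Counts of called probe sets were 6826, 3420 higher and 3406 lower, and stayed within 1.5 times of this with only the 4 arrays fitted (5380), other filters (5131 to 7014), quantile normalization, median centring or cyclic loess (6518 to 7491) and an intensity trend with a robust prior (8716). Tested against a 1.5-fold difference (limma's treat), 471 remained past the threshold, 162 higher and 309 lower. Leaving out 1 pool gave 3420 to 5160 calls, 1561 to 2975 higher and 1859 to 2921 lower. The share higher was 50.1% of calls, 57.7% without nTreg pool 1 and 41% without nTreg pool 2. Groups share pool numbers, but pools of the same number did not deviate together (r = -0.00687 between nTreg and iTreg across probe sets), so the numbers are not taken as pairs; with the replicate block 5853 probe sets passed. Single genes were followed for 79 genes, those ranked by size and a fixed few such as the sex-linked genes. Further members named from the lists were not followed in this way. All 79 kept their direction under every alternative that tested them, except Xaf1. Its difference was -1.51 when averaged over its probe sets because they move in opposite directions. Hs3st3b1, Cnn3, Treml4, Nipa1 and Thy1 did not pass against 1.5-fold. With 2 pools a group, small differences such as those of the mitochondrial lists pass or fail with single pools, and differences from a mean under 5.48 have no resolved size.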

Other observations

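Several genes outside the lists described above were also among the largest differences. Plac8, a small cysteine-rich protein, read 9.56 and 9.48 in nTreg pools and 11.68 and 11.85 in iTreg pools, and Tdrp read 5.82 and 5.62 against 7.75 and 7.80. Treml2, a receptor of the TREM family, rose by 1.54 ± 0.08 and on 1 of its 2 other probe sets (1.00), and Als2cl, a relative of the Rab5 regulator alsin, rose by 1.62 ± 0.09. Falls outside the lists included 4 genes grouped here as acting in membrane traffic after their values were seen: Dennd4a, an exchange factor for Rab GTPases, read 9.76 and 9.79 against 7.93 and 8.03, Stx11, a syntaxin needed for granule release, 10.84 and 10.80 against 9.37 and 9.20, Sgip1, an endocytic adaptor, 7.78 and 7.60 against 5.57 and 5.77, and Sh3gl3, an endophilin, 7.68 and 7.30 against 6.19 and 5.75. Tmbim1 and Cnrip1 fell by 1.63 and 1.91.

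Falls to means under the filter level included Zc3h12c, an RNA-cleaving enzyme of the Regnase family, which read 7.59 and 7.23 in nTreg pools and 4.07 and 4.38 in iTreg pools, and Kdf1, at 6.35 and 5.98 against 4.04 and 3.66. Rises from such means included Dse, an enzyme of dermatan sulfate, at 3.98 and 3.74 against 6.01 and 5.45. Hs3st3b1, which sulfates heparan chains, rose by 1.38 on 1 probe set, while its 2 others differed by -0.00 and 0.09 (adjusted p = 0.998 and 0.723, limma).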
